A study of Mus musculus with 12 samples.

Results

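Oxidative phosphorylation is carried out by 5 protein complexes of the inner mitochondrial membrane. The genes described here are the nuclear genes whose symbols name a subunit of these complexes: Nduf (complex I), Sdh (complex II), Uqcr (complex III), Cox4 to Cox8 (complex IV) and Atp5 (complex V). Of 24015 gene symbols in the files, 84 fitted these names, and the 77 with a mean of at least 1 CPM over all libraries are the members: 36 of complex I, 4 of complex II, 8 of complex III, 14 of complex IV and 15 of complex V. CPM is a gene's read count scaled to a library of fixed size, here with library sizes adjusted by the TMM method. All 77 members passed the filter on low counts. The choice used names and the mean level, and no difference between groups.

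The libraries came from mouse embryoid bodies, the aggregates that embryonic stem cells form when they differentiate in suspension, in 4 groups of 3: Trim33-deficient and control bodies on day 2, and Trim33-deficient and control bodies on day 2.5. All groups derive, per the labels, from stem cell lines of an outbred mouse strain that were grown feeder-free in LIF and 2i, carried Trim33-flox on both chromosomes and held UbcCreERT2, a Cre recombinase that 4OH-Tamoxifen activates and that is driven by the ubiquitin C promoter, active in most cell types. Deletion in the Trim33-deficient groups was induced on day 1. The controls are labelled wildtype, and whether they too received 4OH-Tamoxifen is not given in the sources used here. The comparison of interest is that of Trim33-deficient with control bodies. Trim33 is a chromatin-bound regulator of TGF-beta family signalling.

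Complexes I and II pass electrons from NADH and succinate to ubiquinone, complex III passes them on to cytochrome c, and complex IV passes them to oxygen. Complexes I, III and IV pump protons as they do so, and complex V, the ATP synthase, uses the proton gradient to make ATP. Most subunits are encoded in the nucleus, and several subunits of complex IV exist in a form found in most tissues and another form found mainly in muscle, lung or testis. The use of glycolysis and respiration differs between states of stem cells in culture, and neither was measured here.

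Libraries held 10066338 to 16529627 counts assigned to genes. Trim33 stood at 60.5, 69.6 and 68.0 CPM in Trim33-deficient bodies, against 275, 261 and 277 CPM in control bodies on day 2 (log2 fold change -2.03 ± 0.06 SE, edgeR adjusted p = 1.00e-11). On day 2.5 it stood at 54.4, 57.6 and 62.8 CPM in Trim33-deficient bodies, against 264, 247 and 239 CPM in control bodies (log2 fold change -2.10 ± 0.06 SE, edgeR adjusted p = 6.35e-12). These p-values and all below come from edgeR's quasi-likelihood test with Benjamini-Hochberg adjustment over the 14356 genes tested. The threshold for passing was 0.05. Statements below that groups do or do not overlap describe the 3 values of each group and are no further test. With 3 libraries against 3, the smallest two-sided p a rank test could give is 0.1. The share of all genes without overlap was not counted. Trim33 RNA thus remained in every Trim33-deficient library, and its source was not tested. Some libraries stood apart. Counts of Rn45s, the precursor of ribosomal RNA, made up 7.87% of the library from replicate 1 of the Trim33-deficient bodies of day 2 and 11.9% of that from replicate 2 of the controls of day 2.5 (0.609 to 1.67% elsewhere), and genes of glycolysis and the hypoxia response were highest in day 2 control replicate 2. The epiblast markers Pou5f1, Fgf5, Dnmt3b, Otx2 and Utf1 were all detected. Their summed level was 3849 to 4194 CPM in Trim33-deficient bodies and 4971 to 5384 CPM in control bodies on day 2, and 2871 to 3482 CPM in Trim33-deficient and 4293 to 4907 CPM in control bodies on day 2.5, where Dnmt3b, Fgf5 and Otx2 fell. Of 5 fibroblast markers, Postn and Lum had a mean under 1 CPM in every group, and the list summed to 17.1 to 19.2 CPM in Trim33-deficient and 23.45 to 29.8 CPM in control bodies on day 2, and to 15.7 to 18.7 CPM in Trim33-deficient and 31.4 to 38.6 CPM in control bodies on day 2.5, where Thy1, Col1a1 and Col1a2 fell. On day 2, 1 of the 5 epiblast markers and 1 of the 3 fibroblast markers tested had already fallen, against 3.9% of all genes. The lowest log2 fold changes in these lists were -0.70 and -0.84, and every marker tested lay below 0. The part of these shifts in the results below was not tested. In bulk RNA, fewer cells of a type and less RNA per cell cannot be told apart.

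Levels of the members spanned a wide range. Per kilobase of transcript, Atp5b and Atp5a1, the beta and alpha subunits that form the catalytic head of complex V, were the highest at 1165 and 658 CPM per kb as means over all libraries. Atp5g3, which encodes the ring-forming subunit c of complex V, followed at 459.9 CPM per kb, ahead of Cox4i1 of complex IV at 342 and Ndufa4 at 293 CPM per kb. Ndufa4 carries a complex I name but is known as a subunit of complex IV. The highest members of the other complexes were Uqcrh, the hinge protein of complex III, at 175 CPM per kb and Sdhd, a membrane anchor of complex II, at 140.2 CPM per kb. The median over members was 71.2 CPM per kb in complex I, 104 in complex II, 125 in complex III, 103 in complex IV and 131 in complex V.

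Counts in CPM put complex V far ahead. Atp5b stood at 2190.0, 2245 and 2264 CPM in Trim33-deficient bodies, against 2387, 2496 and 2409 CPM in control bodies on day 2, and Atp5a1 at 1595, 1600.1 and 1618 CPM in Trim33-deficient bodies, against 1757, 1826 and 1773 CPM in control bodies. These 2 genes made up 73.1 to 75.5% of the summed CPM of the 15 members of complex V in each library. By CPM, the highest members of complexes II, III and IV were Sdha, Uqcrc1 and Cox4i1, with means over all libraries of 356, 256 and 255 CPM.

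At the low end, 13 of the 84 names lay below 10 CPM per kb, and they fall into 2 kinds. Tissue-restricted forms made up most of the first kind: Cox8b and Cox6a2 (muscle), Cox4i2 (lung), Cox8c (testis), Cox7a1 (muscle) and Cox7b2, together with Atp5s, a factor that is not a structural subunit of complex V. Their transcripts share none of their 50-base stretches with transcripts of another gene, except Cox6a2 with 3.3%. Cox8b had no count in any library, Cox6a2 averaged 0.0457 CPM, Cox8c 0.450 CPM and Cox4i2 0.927 CPM, and a count of 3 corresponds to 0.181 to 0.298 CPM in these libraries. The second kind holds subunits that most cells use: Ndufs5 (0 in every library), Atp5l, Atp5g2, Atp5g1, Ndufb4 and Cox7c, with 0, 0.400, 1.39, 3.05, 5.14 and 5.64 CPM per kb. Of their 50-base stretches 41.2, 84.8, 100, 66.0, 37.0 and 53.0% also occur in transcripts of other genes in the GENCODE annotation.

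Over all 84 names, the 11 with at least 35% of their stretches shared had a median of 5.64 CPM per kb and 6 below 10 CPM per kb, the 38 with none shared had a median of 76.7 and 6 below 10, and the 35 between had a median of 92.5 and 1 below 10. Both limits, 35% and 10 CPM per kb, were set after the values were seen. Atp5h shows that sharing does not always go with a low count, at 50.2 CPM per kb with 66.6% shared. The row for reads with several positions reads 0 in every library. Levels of genes with shared stretches are therefore uncertain, and a 0 for Ndufs5 is the listed value, not a measured absence. Members followed below share stretches too, among them Ndufb6 (34.1%), Cox5b (25.9%), Uqcrc2 (24.8%) and Ndufa11 (12.5%). The rule's limit of 1 CPM fell between Cox4i2, the highest name left out, and Atp5g1, the lowest member at 1.82 CPM.

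**Figure D1:**
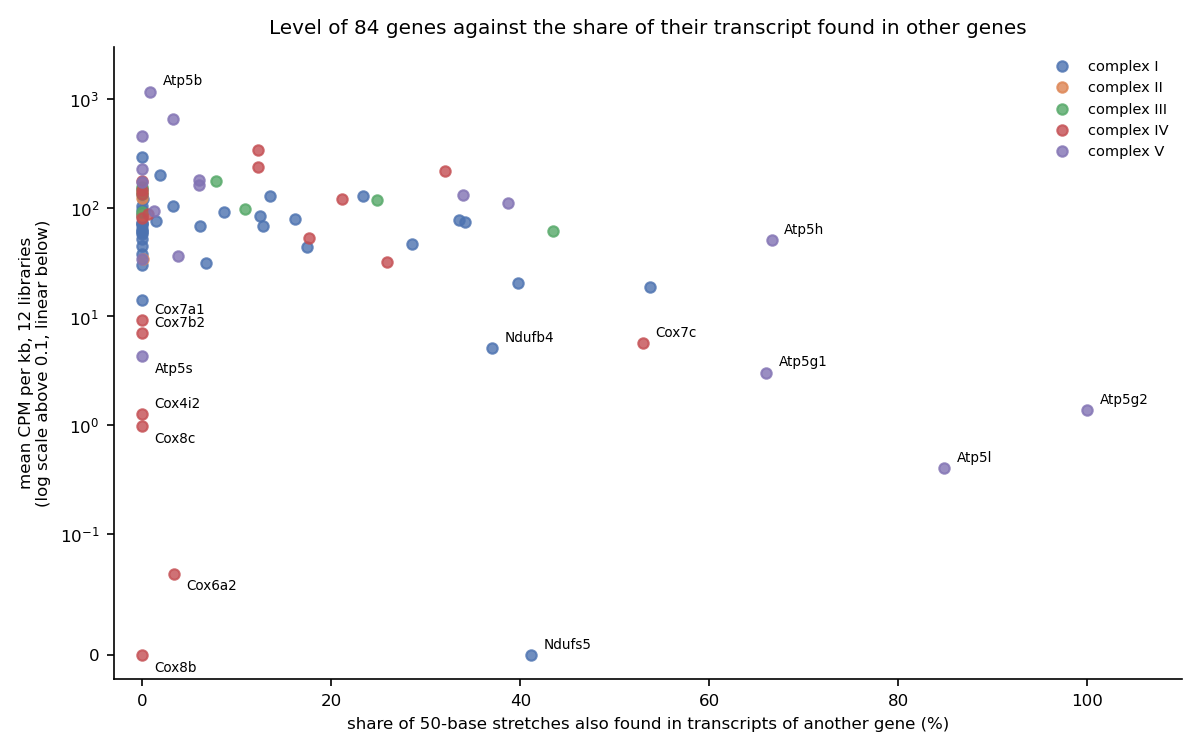
Mean level over all 12 libraries in CPM per kb of transcript (vertical axis, logarithmic above 0.1 and linear below) against the share of a transcript's 50-base stretches that also occur in transcripts of another gene (horizontal axis, percent), 1 point per gene of the 84 names, coloured by complex. The genes below 10 CPM per kb stand in a column near 0% shared (tissue-restricted forms and Atp5s) or at 37.0% and above (Ndufb4, Ndufs5, Cox7c, Atp5g1, Atp5l and Atp5g2).

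The pairs of common and tissue-restricted forms of complex IV differed in how much of the restricted form was present. Cox6b2, the testis form of a subunit on the outer side of complex IV, was well detected: per transcript length it made up 35.6 ± 2.63% of Cox6b1 plus Cox6b2 in Trim33-deficient bodies and 30.8 ± 3.80% in control bodies on day 2, and 42.6 ± 2.64% in Trim33-deficient and 32.2 ± 2.58% in control bodies on day 2.5 (SD, n = 3 each). Cox7b2 made up 8.55 ± 0.234% of Cox7b plus Cox7b2 in Trim33-deficient bodies and 8.08 ± 1.76% in control bodies on day 2, and 7.63 ± 1.91% in Trim33-deficient and 5.35 ± 1.06% in control bodies on day 2.5 (SD, n = 3 each). Cox7a1 stayed at 4.49 to 5.30% of Cox7a1 plus Cox7a2 in the means of the 4 groups, and Cox4i2 at 0.320 to 0.395% of Cox4i1 plus Cox4i2. These shares rest on the length of 1 transcript per gene, 391 bases for Cox6b2 and 618 for Cox6b1. All exons of these genes cover 1108 and 708 bases, and scaling by those lengths would give a lower share of Cox6b2. Markers of testis and muscle cells were low. Of 4 spermatogenic markers, Tnp1 was at 0 in every library, Prm1 and Pgk2 averaged under 1 CPM in every group, and the sum with Ldhc was 1.38 to 2.75 CPM in Trim33-deficient and 2.40 to 2.71 CPM in control bodies on day 2, and 1.17 to 1.43 CPM in Trim33-deficient and 1.71 to 2.58 CPM in control bodies on day 2.5. Of 5 muscle markers, Tnnt2 and Myl2 averaged under 1 CPM in every group and Myh6 gave most of the sum, which was 11.8 to 14.7 CPM in Trim33-deficient and 15.2 to 17.0 CPM in control bodies on day 2, and 11.6 to 13.6 CPM in Trim33-deficient and 12.9 to 15.3 CPM in control bodies on day 2.5.

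The first comparison asked how the members stood on day 2, 1 day after deletion was induced. No member rose, and Sdha, Cox7a2 and Atp5a1 fell, which is 3.9% of the 77 members. Over all 14356 genes tested 5.94% rose and 3.9% fell, so in this fit the share of members that fell equals that of all genes. With upper-quartile scaling 9 members fell (11.7%, against 5.08% of all genes). At an unadjusted p under 0.05, 1 member was higher (1.3%, against 13% of all genes) and 18 were lower (23.4%, against 11.7%). DESeq2 called 0 higher, against 6.02% of all genes, and 5 lower (6.49%, against 4.36%). These shares of all genes divide the DESeq2 calls by the 14356 genes tested with edgeR. Over the 13121 genes that DESeq2 tested, they were 6.58% higher and 4.77% lower. The median log2 fold change was -0.078 over the members (-0.051 without day 2 control replicate 2) and -0.0049 over all genes tested, and 62 of 77 members (80.5%) were below 0, against 51.1% of all genes. Differences were small: 1 member, Ndufa4l2, was past 0.5 on the log2 scale in either direction (1.3%, against 8.82% of all genes), with a standard error of 0.62.

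Sdha, the flavoprotein of complex II that oxidises succinate, stood at 320.3, 337 and 341 CPM in Trim33-deficient bodies, against 390.1, 368 and 387 CPM in control bodies on day 2. The groups did not overlap (log2 fold change -0.20 ± 0.04 SE, edgeR adjusted p = 0.0132). Cox7a2, the common form of a small complex IV subunit, stood at 106, 113 and 111 CPM in Trim33-deficient bodies, against 130.3, 125 and 133 CPM in control bodies. It too had no overlap between the groups (log2 fold change -0.23 ± 0.05 SE, edgeR adjusted p = 0.0126). Atp5a1, with the values above, was lower in every Trim33-deficient library (log2 fold change -0.15 ± 0.04 SE, edgeR adjusted p = 0.0293), a call lost in 11 of 23 settings and when any single library of that day was left out. Without day 2 control replicate 3, or without day 2 Trim33-deficient replicate 1, the library rich in Rn45s, 0 members fell. Without both Rn45s-rich libraries 1 fell, and without these and day 2 control replicate 2, the library high in glycolysis and hypoxia genes, 6 fell and 1 rose. Leaving out day 2.5 control replicate 2 alone gave 6 falls, and leaving out day 2 control replicate 2 alone gave 1 rise.

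In complex I, 36 members did not pass on day 2, with log2 fold changes between -0.53 (Ndufa4l2) and 0.10 (Ndufb3). In complex III, 8 members lay between -0.23 and -0.06 and did not pass. Uqcrq, a small subunit of complex III, was at the low end (log2 fold change -0.23 ± 0.08 SE, edgeR adjusted p = 0.0644). Among 13 members of complex IV that did not pass, Cox5b had the smallest adjusted p (log2 fold change -0.27 ± 0.08 SE, edgeR adjusted p = 0.0505). Among 14 of complex V, Atp5g1 stood lowest at -0.44 ± 0.22 SE and Atp5s highest at 0.42 ± 0.14 SE on the log2 scale, with 7.21, 7.50 and 6.58 CPM in Trim33-deficient bodies, against 5.21, 5.49 and 5.19 CPM in control bodies and no overlap. In complex II, Sdhb stood at 99.6, 97.6 and 96.6 CPM in Trim33-deficient bodies, against 96.4, 101 and 98.4 CPM in control bodies, Sdhc at 113, 109 and 107 CPM in Trim33-deficient bodies, against 104, 115 and 110.4 CPM in control bodies, and Sdhd at 177, 171 and 168 CPM in Trim33-deficient bodies, against 170.5, 178 and 165 CPM in control bodies. The groups overlapped in all 3, and Sdhb, Sdhc and Sdhd had log2 fold changes of -0.012 ± 0.06, -0.00037 ± 0.05 and 0.0031 ± 0.05 (SE).

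On day 2.5, 5 members rose and 17 fell. That is 6.49% and 22.1% of the members, against 22% and 20.7% of all genes tested, so the share that fell was close to that of all genes. The falls were small, between 0.11 and 0.28 on the log2 scale (1.08- to 1.21-fold), and the rises lay between 0.16 and 0.67 (1.115- to 1.59-fold). Past 0.5 on the log2 scale in either direction lay 2 members (2.6%), Cox6b2 and Ndufa4l2, against 23.1% of all genes. The median log2 fold change was -0.075 over the members (-0.045 without day 2.5 control replicate 3) and -0.0096 over all genes. Of the 77 members 52 (67.5%) were below 0, against 51.2% of all genes. The falls were spread over the complexes as 7 of 36 members in complex I, 3 of 4 in complex II, 4 of 8 in complex III and 3 of 15 in complex V, and 0 of 14 in complex IV. In complex IV, 1 member (7.14%) was lower at an unadjusted p under 0.05, against 25% of all genes lower and 25.5% higher, and DESeq2 called 0 lower. The median log2 fold change was -0.07 in complex I, -0.17 in complex II, -0.13 in complex III, 0.08 in complex IV and -0.09 in complex V. Whether complexes differ was not tested. DESeq2 called 5 members higher (6.49%, against 20.1% of all genes) and 15 lower (19.5%, against 19.1%). These shares of all genes divide the DESeq2 calls by the 14356 genes tested with edgeR. Over the 15399 genes that DESeq2 tested, they were 18.7% higher and 17.9% lower. There were 8 falls when day 2.5 control replicate 3 was left out and 10 without day 2.5 Trim33-deficient replicate 2, and the number that rose was 3 without day 2.5 Trim33-deficient replicate 1. Without the Rn45s-rich libraries 4 rose (5.19%, against 20.8% of all genes) and 19 fell (24.7%, against 18.4%). Without these and day 2 control replicate 2, 6 rose (7.79%, against 23.5%) and 23 fell (29.9%, against 22%).

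**Figure D2:**
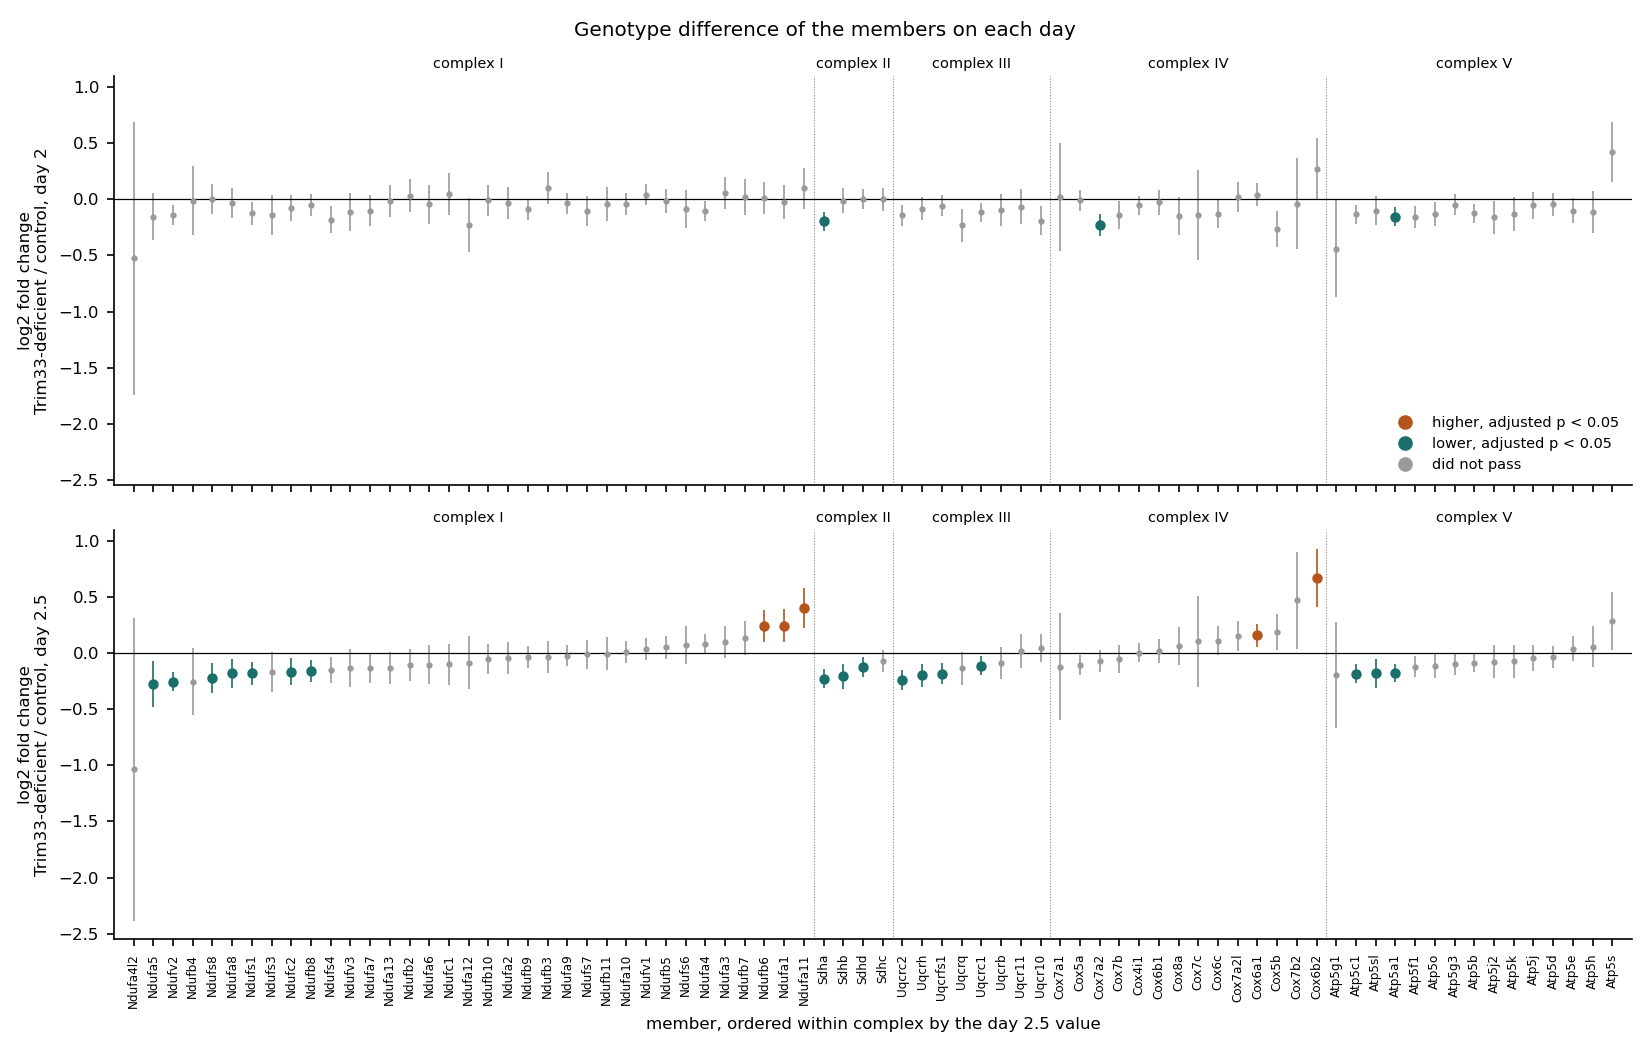
Log2 fold change of Trim33-deficient over control bodies (vertical axis) with its approximate 95% interval for the members on day 2 (upper) and day 2.5 (lower), grouped by complex. These intervals treat the spread as known and are narrower than the edgeR test allows. Coloured points passed the test: 3 fell on day 2, and 17 fell and 5 rose on day 2.5, with no fall in complex IV and the highest rise in Cox6b2.

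The largest rise was that of Cox6b2, with 46.6, 44.5 and 37.6 CPM in Trim33-deficient bodies, against 24.5, 29.0 and 27.3 CPM in control bodies on day 2.5. Every Trim33-deficient library lay above every control library, and the difference was 1.59-fold (log2 fold change 0.67 ± 0.13 SE, edgeR adjusted p = 0.00106). On day 2 Cox6b2 stood at 30.5, 33.4 and 28.0 CPM in Trim33-deficient bodies, against 20.6, 31.8 and 23.7 CPM in control bodies, with overlapping groups (log2 fold change 0.27 ± 0.14 SE, edgeR adjusted p = 0.237). Cox6b1, the form of the same subunit found in most tissues, stood at 92.7, 89.8 and 90.8 CPM in Trim33-deficient bodies, against 89.6, 84.8 and 94.9 CPM in control bodies on day 2.5, and the groups overlapped (log2 fold change 0.02 ± 0.06 SE, edgeR adjusted p = 0.807). The change of Cox6b2 kept its call in all 23 alternative settings, with log2 fold changes of 0.60 to 0.76. Of the spermatogenic markers, Ldhc fell at a low level (log2 fold change -0.81 ± 0.28 SE, edgeR adjusted p = 0.0257), but DESeq2 did not call it. Tnp1, Prm1 and Pgk2 were too low to test.

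Ndufa11, an accessory subunit in the membrane arm of complex I, rose as well, with 52.7, 53.8 and 49.3 CPM in Trim33-deficient bodies, against 40.2, 33.4 and 43.8 CPM in control bodies. The groups did not overlap, and day 2.5 control replicate 2, a library rich in Rn45s, was the lowest (log2 fold change 0.40 ± 0.09 SE, edgeR adjusted p = 0.00238). Without the Rn45s-rich libraries the call held, as in all 23 settings, with log2 fold changes between 0.31 and 0.49. Ndufb6 and Ndufa1, small membrane-arm subunits, rose by 0.24 ± 0.07 (Ndufb6) and 0.24 ± 0.08 (Ndufa1) on the log2 scale (SE, edgeR adjusted p = 0.0119 and 0.0163). Ndufb6 stood at 53.2, 52.7 and 53.9 CPM in Trim33-deficient bodies, against 46.5, 40.4 and 47.9 CPM in control bodies, and it overlaps another gene, Smim27, in the annotation. Ndufa1 stood at 34.5, 30.9 and 29.6 CPM in Trim33-deficient bodies, against 26.8, 25.6 and 27.7 CPM in control bodies. Neither gene's groups overlapped, but Ndufa1 lost its call without the Rn45s-rich libraries and without day 2.5 Trim33-deficient replicate 1. Cox6a1, the common form of a complex IV subunit whose muscle form Cox6a2 was not detected above the floor, stood at 141, 141 and 143 CPM in Trim33-deficient bodies, against 127, 122 and 132 CPM in control bodies (log2 fold change 0.16 ± 0.05 SE, edgeR adjusted p = 0.0228). All 3 Trim33-deficient libraries were higher than the controls, and the call was lost when any of 5 of the 6 libraries of that day was left out.

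Complex II changed in most of its subunits on day 2.5. Sdha stood at 323, 322 and 334 CPM in Trim33-deficient bodies, against 395, 374 and 378 CPM in control bodies, much as on day 2, and the groups were apart again (log2 fold change -0.23 ± 0.04 SE, edgeR adjusted p = 0.000726). Sdhb, the iron-sulfur subunit that takes the electrons from Sdha, stood at 84.7, 93.1 and 95.3 CPM in Trim33-deficient bodies, against 101, 103 and 111 CPM in control bodies. Its groups did not overlap (log2 fold change -0.21 ± 0.06 SE, edgeR adjusted p = 0.0065). Sdhd stood at 165, 169 and 164 CPM in Trim33-deficient bodies, against 181, 173 and 189 CPM in control bodies (log2 fold change -0.12 ± 0.05 SE, edgeR adjusted p = 0.043), a call lost in 12 of 23 settings. The other membrane anchor, Sdhc, stood at 98.9, 101 and 102 CPM in Trim33-deficient bodies, against 103, 104 and 109.7 CPM in control bodies and did not pass (log2 fold change -0.07 ± 0.05 SE, edgeR adjusted p = 0.274). Sdha and Sdhb kept their calls in all 23 settings.

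The promoter windows of Cox6b2, Ndufa11, Sdha and Sdhb, 250 bases before to 50 after the start of the gene, are shown because Cox6b2 and Ndufa11 had the largest rises and Sdha and Sdhb the falls of complex II that held under every setting. They come from RefSeq for build GRCm38.p6: Cox6b2 at chr7:4753045-4753344 (minus strand), Ndufa11 at chr17:56717512-56717811 (plus strand), Sdha at chr13:74350191-74350490 (minus strand) and Sdhb at chr4:140961021-140961320 (plus strand). Capitals mark exact matches, on either strand, to short motifs of factors known to act on genes of the respiratory chain: GCGCATGC for NRF1, CCGGAAG for ETS factors such as GABP, AAGATGGC for YY1 and TCAAGGTCA for ERR.
Cox6b2: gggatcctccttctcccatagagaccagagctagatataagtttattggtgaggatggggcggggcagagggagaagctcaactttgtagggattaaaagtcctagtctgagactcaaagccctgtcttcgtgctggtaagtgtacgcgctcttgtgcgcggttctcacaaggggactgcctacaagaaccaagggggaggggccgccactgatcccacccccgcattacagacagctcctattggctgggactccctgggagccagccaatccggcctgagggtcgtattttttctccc
Ndufa11: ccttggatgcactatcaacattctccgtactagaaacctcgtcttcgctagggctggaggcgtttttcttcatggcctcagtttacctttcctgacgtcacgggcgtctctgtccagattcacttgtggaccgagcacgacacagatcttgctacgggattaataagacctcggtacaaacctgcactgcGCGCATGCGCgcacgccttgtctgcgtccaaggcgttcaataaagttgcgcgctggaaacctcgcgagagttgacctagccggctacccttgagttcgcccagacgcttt
Sdha: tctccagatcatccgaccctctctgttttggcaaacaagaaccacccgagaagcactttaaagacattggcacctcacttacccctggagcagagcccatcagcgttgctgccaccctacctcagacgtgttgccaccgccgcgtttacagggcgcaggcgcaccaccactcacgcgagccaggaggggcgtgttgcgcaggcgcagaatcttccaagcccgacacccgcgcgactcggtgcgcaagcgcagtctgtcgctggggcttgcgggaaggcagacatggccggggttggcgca
Sdhb: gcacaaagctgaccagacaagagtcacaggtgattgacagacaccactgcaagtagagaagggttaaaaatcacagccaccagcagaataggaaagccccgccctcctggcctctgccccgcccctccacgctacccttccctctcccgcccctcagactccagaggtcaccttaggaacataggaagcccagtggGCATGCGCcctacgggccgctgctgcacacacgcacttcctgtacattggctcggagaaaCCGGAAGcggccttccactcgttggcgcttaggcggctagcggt
Ndufa11 held 2 overlapping matches to the NRF1 letters, 1 on each strand, Sdhb held 1 match to NRF1 and 1 to ETS, and the windows of Cox6b2 and Sdha held no match to these 4 motifs. RefSeq windows were found for 62 of the 77 members (67 windows). Of these windows 11.9% held the NRF1 letters, against 2.71% of all 32851 promoter windows, 22.4% the ETS letters against 8.86%, 13.4% the YY1 letters against 2.75% and 2.99% the ERR letters against 0.423%. A match describes the letters only.

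In complex I, the clearest fall was that of Ndufv2, an iron-sulfur subunit of the part that oxidises NADH, with 98.6, 98.0 and 97.7 CPM in Trim33-deficient bodies, against 114, 117 and 120.3 CPM in control bodies on day 2.5. The 3 Trim33-deficient libraries lay close together and below all controls (log2 fold change -0.26 ± 0.04 SE, edgeR adjusted p = 0.000262). On day 2 its groups were also apart, at 94.0, 96.0 and 96.1 CPM in Trim33-deficient bodies, against 105, 104 and 106 CPM in control bodies, but it did not pass (log2 fold change -0.14 ± 0.04 SE, edgeR adjusted p = 0.0619). Ndufs1, the largest iron-sulfur subunit of the same part, stood at 169.6, 162 and 159 CPM in Trim33-deficient bodies, against 186, 176 and 193 CPM in control bodies (log2 fold change -0.18 ± 0.05 SE, edgeR adjusted p = 0.0111). Ndufs8, an iron-sulfur subunit on the path to ubiquinone, stood at 40.1, 36.9 and 42.7 CPM in Trim33-deficient bodies, against 43.8, 47.3 and 48.7 CPM in control bodies (log2 fold change -0.22 ± 0.07 SE, edgeR adjusted p = 0.0155). Both were lower in every Trim33-deficient library, both lost their call without day 2.5 control replicate 3, and Ndufs8 also without day 2.5 Trim33-deficient replicate 2.

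Among accessory subunits of complex I, Ndufb8 stood at 80.4, 77.0 and 80.1 CPM in Trim33-deficient bodies, against 85.1, 87.4 and 93.0 CPM in control bodies (log2 fold change -0.16 ± 0.05 SE, edgeR adjusted p = 0.0173), and Ndufc2 at 45.4, 45.6 and 45.8 CPM in Trim33-deficient bodies, against 50.3, 49.7 and 53.3 CPM in control bodies (log2 fold change -0.16 ± 0.06 SE, edgeR adjusted p = 0.0378). Each had lower values in the 3 Trim33-deficient libraries than in any control. The call of Ndufb8 was lost without day 2.5 control replicate 3 and without day 2.5 Trim33-deficient replicate 2, and that of Ndufc2 in 9 of 23 settings, DESeq2 and the loss of 5 of the 6 libraries of that day among them. Ndufa8 and Ndufa5 fell by 0.18 ± 0.07 and 0.28 ± 0.11 on the log2 scale (SE, edgeR adjusted p = 0.0396 and 0.0458), and each lost its call in 10 or more of 23 settings. The other 26 members of complex I did not pass, and 19 of them lay below 0. Ndufv1, the partner of Ndufv2 that binds NADH, had a log2 fold change of 0.04 ± 0.05 SE (edgeR adjusted p = 0.567). Its values were 141, 139.9 and 146 CPM in Trim33-deficient bodies, against 135, 134 and 147 CPM in control bodies, with overlapping groups. At the bounds stood Ndufa4l2 with -1.04 and Ndufb7 with 0.13.

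Ndufa4l2, a relative of Ndufa4 that is induced by hypoxia, had the lowest fold change of all members without passing. It stood at 5.96, 5.05 and 8.39 CPM in Trim33-deficient bodies, against 7.28, 27.3 and 7.30 CPM in control bodies on day 2.5 and at 9.86, 13.4 and 16.4 CPM in Trim33-deficient bodies, against 10.7, 35.1 and 12.2 CPM in control bodies on day 2. On both days control replicate 2 stood far above the other libraries, and the 2 libraries were also the highest in the median log2 deviation of the glycolysis and hypoxia genes, 0.515 on day 2 and 0.262 on day 2.5, against -0.274 to 0.150 in the other 10. By the mean deviation of these genes, day 2 control replicate 2 was again the highest at 0.551, but day 2.5 control replicate 2, at 0.112, lay below Trim33-deficient replicates 2 (0.174) and 3 (0.132) of day 2. The genotype test did not pass (log2 fold change -1.04 ± 0.69 SE, edgeR adjusted p = 0.261). Ndufa4 itself stood at 143, 143 and 133 CPM in Trim33-deficient bodies, against 132, 128 and 135 CPM in control bodies (log2 fold change 0.08 ± 0.05 SE, edgeR adjusted p = 0.167).

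In complex III the falls were in both core proteins, in the Rieske iron-sulfur protein and in the hinge protein. Uqcrc2, a core protein, stood at 202, 204 and 202 CPM in Trim33-deficient bodies, against 229.7, 239 and 249 CPM in control bodies on day 2.5, without overlap (log2 fold change -0.24 ± 0.05 SE, edgeR adjusted p = 0.000722). Uqcrfs1, the Rieske protein that carries electrons towards cytochrome c1, stood at 117, 116 and 113 CPM in Trim33-deficient bodies, against 131, 127 and 134 CPM in control bodies (log2 fold change -0.18 ± 0.05 SE, edgeR adjusted p = 0.00532). Uqcrh stood at 88.7, 95.1 and 85.5 CPM in Trim33-deficient bodies, against 100.5, 100.1 and 108 CPM in control bodies (log2 fold change -0.20 ± 0.05 SE, edgeR adjusted p = 0.00638). In each of the 3 genes the Trim33-deficient libraries were the lower ones, and the calls held in all 23 settings. Uqcrc1, the other core protein, stood at 233, 231 and 243 CPM in Trim33-deficient bodies, against 258, 248 and 259.7 CPM in control bodies, without overlap (log2 fold change -0.11 ± 0.04 SE, edgeR adjusted p = 0.0415), and lost its call in 11 settings. The small subunits Uqcrq, Uqcrb, Uqcr10 and Uqcr11 did not pass, with log2 fold changes of -0.14, -0.09, 0.04 and 0.02. Cyc1, the cytochrome c1 of this complex, has a name outside the rule and fell, with 195, 212 and 222 CPM in Trim33-deficient bodies, against 244, 235 and 263 CPM in control bodies (log2 fold change -0.24 ± 0.05 SE, edgeR adjusted p = 0.00206).

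In complex V, Atp5a1 and Atp5c1, the alpha and gamma subunits, fell in all 23 settings. Atp5a1 stood at 1439, 1445 and 1492 CPM in Trim33-deficient bodies, against 1624, 1649 and 1682 CPM in control bodies (log2 fold change -0.18 ± 0.04 SE, edgeR adjusted p = 0.00281), and Atp5c1, the stalk that turns inside the catalytic head, at 186, 192 and 191 CPM in Trim33-deficient bodies, against 212, 212 and 221 CPM in control bodies (log2 fold change -0.18 ± 0.04 SE, edgeR adjusted p = 0.00335). Neither had overlapping groups. Atp5sl stood at 43.5, 47.5 and 45.5 CPM in Trim33-deficient bodies, against 52.3, 52.2 and 50.4 CPM in control bodies, again without overlap (log2 fold change -0.18 ± 0.07 SE, edgeR adjusted p = 0.0356), and this call was lost in 8 settings. Despite its name it is listed today as Dmac2, whose human counterpart acts in complex I assembly. Its relative by name, Atp5s, stood at 7.56, 6.88 and 7.32 CPM in Trim33-deficient bodies, against 5.51, 5.51 and 6.74 CPM in control bodies and did not pass (log2 fold change 0.29 ± 0.13 SE, edgeR adjusted p = 0.0896). Atp5b stood at 2074, 2062 and 2068 CPM in Trim33-deficient bodies, against 2162, 2184 and 2248 CPM in control bodies, below the controls in every library, yet it did not pass (log2 fold change -0.09 ± 0.04 SE, edgeR adjusted p = 0.114). Of the genes of subunit c, Atp5g3 stood at 316, 314 and 314 CPM in Trim33-deficient bodies, against 344, 313 and 352 CPM in control bodies (log2 fold change -0.10 ± 0.05 SE). Atp5g1 stood at 1.45, 1.32 and 1.37 CPM in Trim33-deficient bodies, against 1.51, 1.60 and 1.64 CPM in control bodies (log2 fold change -0.20 ± 0.24 SE). Neither passed, and the groups overlapped in Atp5g3 but not in Atp5g1.

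In complex IV, 12 of 14 members did not pass on day 2.5, and 8 of these 12 lay above 0. Cox4i1 stood at 252, 254 and 256 CPM in Trim33-deficient bodies, against 253, 241 and 267 CPM in control bodies. Its log2 fold change was 0.0031 with an approximate 95% interval of -0.083 to 0.090, which is narrower than the edgeR test allows. Cox5a had the smallest adjusted p among those that did not pass (log2 fold change -0.11 ± 0.05 SE, edgeR adjusted p = 0.0701). Cox7b2 had the highest value among those that did not pass (log2 fold change 0.47 ± 0.22 SE, edgeR adjusted p = 0.0966), at 4.87, 3.29 and 3.10 CPM in Trim33-deficient bodies, against 3.02, 2.04 and 2.90 CPM in control bodies. The Trim33-deficient libraries of Cox7b2 were all higher, at few counts. Cox7a2l, known as a factor that joins complexes III and IV into supercomplexes, stood at 66.6, 68.6 and 64.3 CPM in Trim33-deficient bodies, against 57.1, 62.5 and 60.3 CPM in control bodies (log2 fold change 0.15 ± 0.07 SE, edgeR adjusted p = 0.0799). Among the remaining isoform members, the muscle form Cox7a1 stood at 4.44, 5.12 and 3.51 CPM in Trim33-deficient bodies, against 3.87, 5.51 and 4.85 CPM in control bodies (log2 fold change -0.12 ± 0.24 SE), and Cox7a2 at 108, 111 and 110.3 CPM in Trim33-deficient bodies, against 114, 109.5 and 122 CPM in control bodies (log2 fold change -0.07 ± 0.05 SE). Cox7b stood at 82.6, 88.7 and 80.2 CPM in Trim33-deficient bodies, against 81.4, 84.3 and 94.3 CPM in control bodies (log2 fold change -0.05 ± 0.06 SE), and Cox8a at 70.6, 64.2 and 70.1 CPM in Trim33-deficient bodies, against 55.5, 74.0 and 67.5 CPM in control bodies (log2 fold change 0.06 ± 0.09 SE). The groups overlapped in all 4, and none of the 4 passed.

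**Figure D3:**
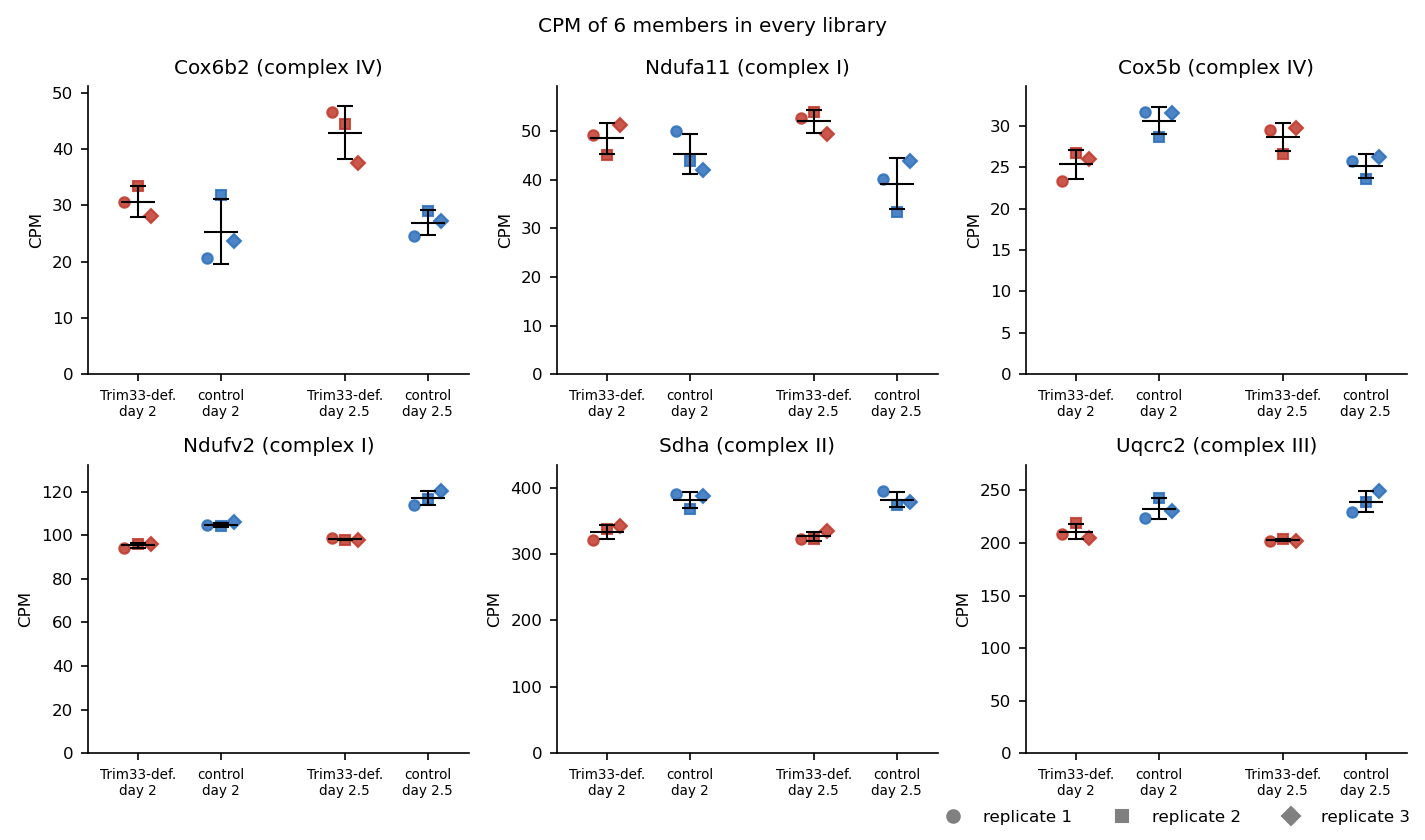
CPM of Cox6b2, Ndufa11, Cox5b, Ndufv2, Sdha and Uqcrc2 in every library (vertical axes from 0), with Trim33-deficient (red) left of control (blue) on each day, symbols for the replicates, and mean and SD as black bars. The 6 genes were chosen for their differences, so that the groups do not overlap on day 2.5 is no separate support. On that day Cox6b2, Ndufa11 and Cox5b have the higher and Ndufv2, Sdha and Uqcrc2 the lower values in Trim33-deficient bodies. The difference of Cox5b did not pass the test on day 2.5.

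In TMM-scaled CPM summed over members, complexes I, II, III and V were lower in every Trim33-deficient than in every control library on both days. With plain library totals this separation was lost in each of these complexes on day 2.5, and in complex I on day 2. Day 2.5 control replicate 2, with a TMM factor of 0.900, was then the lowest library of that day. The ratio of complex I on day 2.5 then turned to 0.0041 on the log2 scale. Complex II summed to 709 to 715 CPM in Trim33-deficient and 761 to 762 CPM in control bodies on day 2, and to 672 to 696 CPM in Trim33-deficient and 754 to 787 CPM in control bodies on day 2.5. Complex III summed to 863 to 886 CPM in Trim33-deficient and 947 to 963 CPM in control bodies on day 2, and to 819.7 to 832 CPM in Trim33-deficient and 888 to 950.3 CPM in control bodies on day 2.5. Complex V summed to 5088 to 5208 CPM in Trim33-deficient and 5556 to 5724.5 CPM in control bodies on day 2, and to 4779.9 to 4841 CPM in Trim33-deficient and 5136 to 5347 CPM in control bodies on day 2.5. None of these ranges overlap, nor do those of complex I, which summed to 2312 to 2357 CPM in Trim33-deficient and 2419 to 2481 CPM in control bodies on day 2, and to 2246 to 2273 CPM in Trim33-deficient and 2286 to 2430.4 CPM in control bodies on day 2.5. Expressed as the log2 ratio of the group means, complexes II, III and V stood at -0.10, -0.12 and -0.13 on day 2 and at -0.18, -0.15 and -0.12 on day 2.5, and scaling by plain library totals gave -0.12, -0.09 and -0.06 on day 2.5. These sums are descriptions with no test, and each follows its most abundant genes, Sdha in complex II and Atp5a1 and Atp5b in complex V.

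As means, complex I stood at 2341 ± 25.5 CPM in Trim33-deficient and 2442 ± 33.8 CPM in control bodies on day 2, and at 2263 ± 15.1 CPM in Trim33-deficient and 2349 ± 74.1 CPM in control bodies on day 2.5 (SD, n = 3 each). The log2 ratio was -0.06 on day 2 and -0.05 on day 2.5, where it was -0.03 without control replicate 3. Complex IV had the other direction on day 2.5. It summed to 1081 ± 11.7 CPM in Trim33-deficient and 1129 ± 36.1 CPM in control bodies on day 2 (SD, n = 3 each, log2 ratio -0.06), and to 1089 ± 9.67 CPM in Trim33-deficient and 1057 ± 37.2 CPM in control bodies on day 2.5 (0.04), with ranges that overlapped on day 2.5 but not on day 2. On day 2 the ratio of complex IV was -0.04 without control replicate 2, and on day 2.5 it was 0.07 without control replicate 3 and 0.03 without control replicate 1 or 2. Whether the complexes differ in these ratios was not tested.

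**Figure D4:**
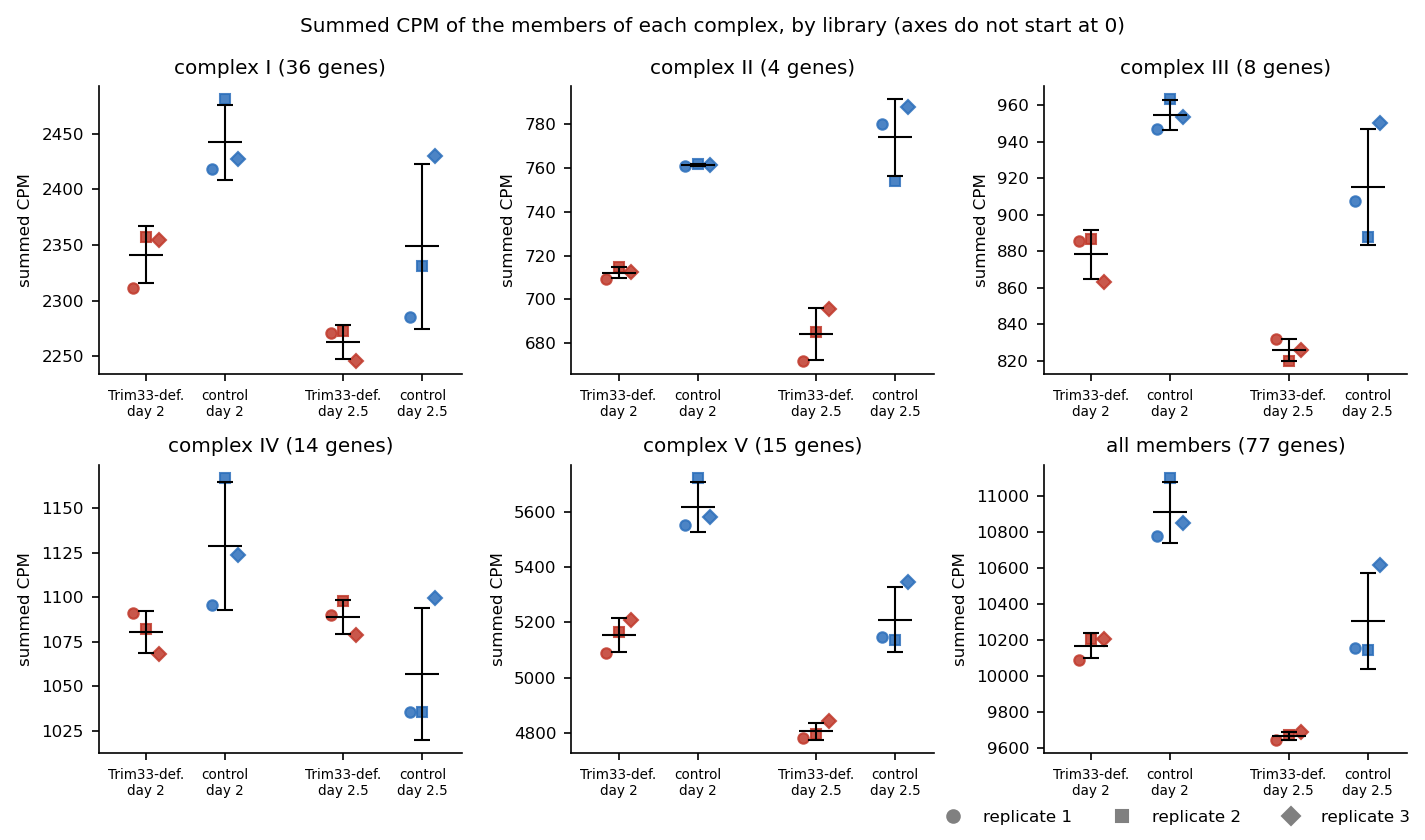
Summed CPM of the members of each complex and of all 77 members in each library (vertical axes, which do not start at 0), with Trim33-deficient (red) left of control (blue) on each day, symbols for the replicates, and mean and SD as black bars. In this TMM-scaled CPM, complexes I, II, III and V are lower in every Trim33-deficient library on both days, and the groups overlap in complex IV on day 2.5. Under plain library totals the groups of these complexes overlap on day 2.5, and complex I turns to a ratio of 0.0041 (log2).

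The interaction of genotype and day asked whether the genotype difference itself changed between the days. Cox5b, the zinc-binding subunit of complex IV, was the 1 member that passed, with a positive value. That is 1.3% of members, against 2.77% of all genes with a positive and 1.24% with a negative interaction. No member passed with a negative value, while 8 members (10.4%) had an unadjusted p under 0.05 with a positive and 2 (2.6%) with a negative value, against 11.4% and 9.49% of all genes. DESeq2 called 1 member positive (1.3%) and 0 negative, against 3.71% and 2.02% of all genes. These shares of all genes divide the DESeq2 calls by the 14356 genes tested with edgeR. Over the 13121 genes that DESeq2 tested, they were 4.05% positive and 2.21% negative. On day 2 Cox5b stood at 23.3, 26.7 and 25.9 CPM in Trim33-deficient bodies, against 31.6, 28.7 and 31.5 CPM in control bodies, with every Trim33-deficient library lower (log2 fold change -0.27 ± 0.08 SE, edgeR adjusted p = 0.0505). On day 2.5 it stood at 29.5, 26.6 and 29.8 CPM in Trim33-deficient bodies, against 25.7, 23.5 and 26.2 CPM in control bodies, with every Trim33-deficient library higher (log2 fold change 0.19 ± 0.08 SE, edgeR adjusted p = 0.0774). Neither difference passed by itself, and their difference was 0.45 ± 0.12 SE on the log2 scale (edgeR adjusted p = 0.0401). The call was lost in 11 of 22 settings: without the Rn45s-rich libraries, and when any single library other than day 2 control replicate 2 or day 2.5 control replicate 1 was left out. For Cox6b2 the interaction did not pass (log2 difference 0.40 ± 0.19 SE, edgeR adjusted p = 0.253), nor did it for Ndufa11 (log2 difference 0.30 ± 0.13 SE, edgeR adjusted p = 0.195). In complex IV 11 of the other 13 members had an interaction above 0, and all 4 of complex II lay below 0. Of all genes tested 50.6% lay below 0. None of these members passed (smallest edgeR adjusted p = 0.146 in complex IV and 0.164 in complex II), and whether the complexes differ was not tested. The direction in complex IV was not particular to it. Of 74 cytoplasmic ribosomal protein genes, 61 had an interaction above 0 (median 0.093), and 1 of the 74 passed (1.35%).

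The comparisons over time asked what changed between the collections, and they use the same libraries as the genotype comparisons. In Trim33-deficient bodies 3 members rose, which is 3.9% of members against 9.09% of all genes, and 2 fell, which is 2.6% against 6.93%. With replicate number added to the fit, 17 fell (22.1%, against 14.7% of all genes), so this count depends on whether the numbers mark pairs. Cox6b2 stood at 46.6, 44.5 and 37.6 CPM on day 2.5, against 30.5, 33.4 and 28.0 CPM on day 2, without overlap (log2 fold change 0.48 ± 0.13 SE, edgeR adjusted p = 0.0237). Ndufa4 and Cox7a2l, both tied to complex IV, rose by 0.16 ± 0.05 (Ndufa4) and 0.23 ± 0.07 (Cox7a2l) on the log2 scale (SE, edgeR adjusted p = 0.0266 and 0.0309). Cox7a2l stood at 66.6, 68.6 and 64.3 CPM on day 2.5, against 57.3, 56.5 and 56.9 CPM on day 2, and Ndufa4 at 143, 143 and 133 CPM on day 2.5, against 124, 127 and 123 CPM on day 2. In both genes the 3 libraries of day 2.5 were the higher ones. The rises of Cox6b2, Ndufa4 and Cox7a2l were each lost in 5 of 23 settings.

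Ndufs8 was the largest called fall over time in Trim33-deficient bodies, with 40.1, 36.9 and 42.7 CPM on day 2.5, against 49.7, 51.1 and 51.4 CPM on day 2 (log2 fold change -0.35 ± 0.07 SE, edgeR adjusted p = 0.00291). Its groups were well apart, and it was the 1 called member of this comparison that kept its call in all 23 settings. Atp5a1 stood at 1439, 1445 and 1492 CPM on day 2.5, against 1595, 1600.1 and 1618 CPM on day 2 (log2 fold change -0.14 ± 0.04 SE, edgeR adjusted p = 0.0354), a call lost in 6 settings. Leaving out day 2 replicate 1 or 3 or day 2.5 replicate 1 or 2 of the Trim33-deficient libraries left 0 rises and 1 fall, and leaving out day 2 replicate 2 left 1 of each. The number of falls was 8 without the Rn45s-rich libraries and day 2 control replicate 2.

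In control bodies 1 member rose over time, 1.3% against 8.2% of all genes, and 9 fell, 11.7% against 7.91%. Of the 9 falls 5 were in complex IV. With replicate number added to the fit, 14 fell (18.2%, against 14.6% of all genes). Cox6c stood at 54.9, 49.8 and 55.8 CPM on day 2.5, against 63.3, 69.4 and 69.2 CPM on day 2, with no overlap (log2 fold change -0.33 ± 0.06 SE, edgeR adjusted p = 0.00312). Cox8a, the common form whose muscle and testis forms were at or near 0, stood at 55.5, 74.0 and 67.5 CPM on day 2.5, against 85.4, 91.2 and 78.1 CPM on day 2 (log2 fold change -0.37 ± 0.09 SE, edgeR adjusted p = 0.00892). Cox5b stood at 25.7, 23.5 and 26.2 CPM on day 2.5, against 31.6, 28.7 and 31.5 CPM on day 2 (log2 fold change -0.28 ± 0.08 SE, edgeR adjusted p = 0.0289). All 3 were lower in each library of day 2.5, and the call of Cox5b was lost in 6 of 23 settings. Cox7b2 fell by 0.73 ± 0.22 on the log2 scale at a low level, with 3.02, 2.04 and 2.90 CPM on day 2.5, against 5.29, 4.49 and 3.62 CPM on day 2 (SE, edgeR adjusted p = 0.0332), a call lost in 7 settings. Cox7a2 stood at 114, 109.5 and 122 CPM on day 2.5, against 130.3, 125 and 133 CPM on day 2, without overlap (log2 fold change -0.16 ± 0.05 SE, edgeR adjusted p = 0.0402), and lost its call in 14 settings.

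Outside complex IV, the small complex III subunits Uqcrq and Uqcr10 fell over time in controls. Uqcrq stood at 59.3, 52.8 and 60.9 CPM on day 2.5, against 76.2, 66.5 and 72.9 CPM on day 2 (log2 fold change -0.31 ± 0.08 SE, edgeR adjusted p = 0.0107), and Uqcr10 at 53.5, 52.2 and 57.7 CPM on day 2.5, against 65.5, 65.1 and 63.0 CPM on day 2 (log2 fold change -0.24 ± 0.06 SE, edgeR adjusted p = 0.0176). Neither overlapped between the days, and the call of Uqcr10 was lost in 3 settings. Atp5b stood at 2162, 2184 and 2248 CPM on day 2.5, against 2387, 2496 and 2409 CPM on day 2, without overlap (log2 fold change -0.14 ± 0.04 SE, edgeR adjusted p = 0.0321). This call was lost in 10 of 23 settings, among them the loss of any single control library. Ndufv2 was the member that rose, with 114, 117 and 120.3 CPM on day 2.5, against 105, 104 and 106 CPM on day 2 (log2 fold change 0.16 ± 0.04 SE, edgeR adjusted p = 0.0234). Cox6c and Uqcrq kept their calls in all 23 settings. Leaving out 1 control library lowered the number of falls to 3 (day 2 replicate 1), 5 (day 2 replicate 3) or 4 (day 2.5 replicate 2), leaving out the Rn45s-rich libraries lowered it to 5, and the rise of Ndufv2 was lost without any single control library other than day 2.5 replicate 1. The 4 members of complex II did not pass over time in either genotype, with log2 fold changes between -0.12 (Sdhc) and -0.03 (Sdha) in Trim33-deficient bodies and between -0.05 (Sdhc) and 0.09 (Sdhb) in control bodies.

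**Figure D5:**
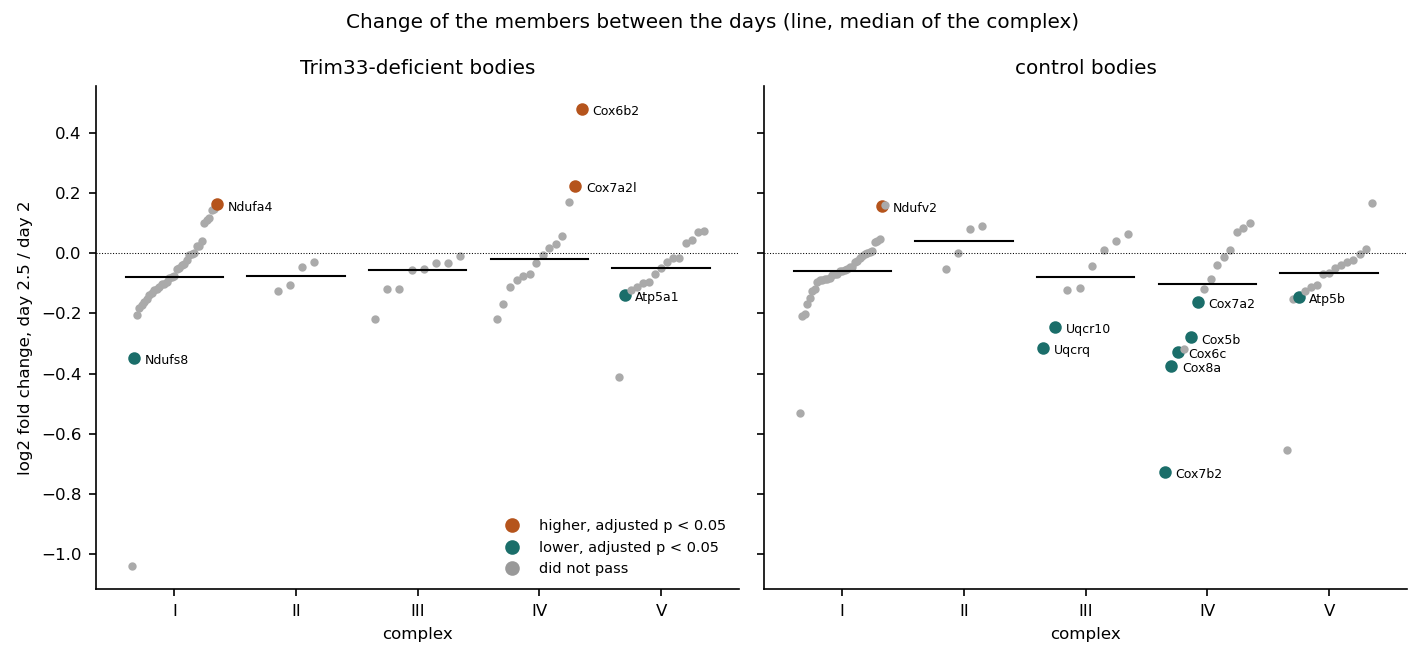
Log2 fold change of day 2.5 over day 2 (vertical axis) for the members by complex, in Trim33-deficient (left) and control bodies (right), with the median of each complex as a line and the members that passed coloured and named. Most of the named falls in control bodies, 5 genes, lie in complex IV, and in Trim33-deficient bodies 2 fell and 3 rose.

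Other mitochondrial genes gave the setting of these differences on day 2.5. The counts below stand against 22% of all genes that rose and 20.7% that fell on day 2.5, and 5.94% and 3.9% on day 2. Of 37 assembly factors tested 1 rose (2.7%) and 3 fell (8.11%), both below the shares of all genes, with a median log2 fold change of -0.045 (all genes -0.0096). Cox17, the copper chaperone of complex IV, stood at 49.0, 46.2 and 43.5 CPM in Trim33-deficient bodies, against 35.2, 37.8 and 40.9 CPM in control bodies (log2 fold change 0.28 ± 0.08 SE, edgeR adjusted p = 0.0082). Cox11, which delivers copper to the same complex, stood at 21.7, 23.4 and 21.1 CPM in Trim33-deficient bodies, against 27.0, 29.5 and 28.1 CPM in control bodies (log2 fold change -0.35 ± 0.08 SE, edgeR adjusted p = 0.00144). In neither gene did the groups overlap. The complex I assembly factors Ndufaf6 and Ndufaf7 fell by 0.51 ± 0.11 and 0.32 ± 0.07 on the log2 scale (SE, edgeR adjusted p = 0.00171 and 0.00229). On day 2, 1 of the 37 fell (2.7%), the complex I factor Ecsit (log2 fold change -0.28 ± 0.06 SE, edgeR adjusted p = 0.0108).

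Of 16 genes of pyruvate oxidation and the citric acid cycle 2 rose (12.5%) and 8 fell (50%) on day 2.5, with a median of -0.16. The subunits of the pyruvate dehydrogenase E1 enzyme moved in opposite directions. Pdhb, the beta subunit, stood at 136, 126 and 126 CPM in Trim33-deficient bodies, against 101, 88.8 and 98.5 CPM in control bodies (log2 fold change 0.43 ± 0.06 SE, edgeR adjusted p = 3.93e-05). Pdha1, the alpha subunit, stood at 219, 209 and 223 CPM in Trim33-deficient bodies, against 252, 253 and 262 CPM in control bodies (log2 fold change -0.23 ± 0.04 SE, edgeR adjusted p = 0.000399). Both genes had groups that did not overlap. Pdha1 also fell on day 2 (log2 fold change -0.24 ± 0.04 SE, edgeR adjusted p = 0.00307), as did Dld, the E3 subunit. Fh1, the fumarase that acts on the product of complex II, stood at 129.6, 132 and 128 CPM in Trim33-deficient bodies, against 147, 159 and 149.5 CPM in control bodies (log2 fold change -0.22 ± 0.05 SE, edgeR adjusted p = 0.00334). Of 6 genes outside the rule that feed or carry electrons 2 rose, Etfdh and Etfb, and Cyc1 fell. Etfdh, which passes electrons from fatty acid oxidation to ubiquinone, stood at 46.1, 41.8 and 38.9 CPM in Trim33-deficient bodies, against 29.4, 29.8 and 30.5 CPM in control bodies (log2 fold change 0.50 ± 0.07 SE, edgeR adjusted p = 7.04e-05).

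Of 12 regulators of mitochondrial biogenesis tested, 3 fell on day 2.5 (25%, close to the share of all genes), with a median of -0.08 over the list. Tfam, the packaging and transcription factor of mitochondrial DNA, stood at 112, 122 and 124 CPM in Trim33-deficient bodies, against 158, 151 and 155 CPM in control bodies (log2 fold change -0.37 ± 0.05 SE, edgeR adjusted p = 4.02e-05). Gabpa and Yy1 fell by 0.19 ± 0.05 and 0.20 ± 0.05 on the log2 scale (SE, edgeR adjusted p = 0.00366 and 0.00322). All 3 had lower values in each Trim33-deficient library. Nrf1 and Esrra, in the same list, were not called. Whether the motif letters searched above go with any of these changes was not tested. Of 75 mitochondrial ribosomal protein genes 27 fell on day 2.5 (36%) and 8 on day 2 (10.7%), with median log2 fold changes of -0.13 on both days. Mrpl12 was among the clearest, with 87.8, 97.0 and 95.4 CPM in Trim33-deficient bodies, against 125, 113 and 129 CPM in control bodies (log2 fold change -0.39 ± 0.06 SE, edgeR adjusted p = 7.74e-05). Of 74 cytoplasmic ribosomal protein genes 6 rose (8.11%) and 2 fell (2.7%) on day 2.5 (median 0.028), and of 16 genes of glycolysis and hypoxia 1 rose (6.25%) and 2 fell (12.5%, median -0.21), among them Ldha, lactate dehydrogenase A (log2 fold change -0.50 ± 0.09 SE, edgeR adjusted p = 0.000532). Genes encoded in mitochondrial DNA are not analysed here.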

How the data were processed

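Embryoid bodies from mouse stem cells were profiled by RNA sequencing in 12 libraries, 3 in each of 4 groups. The authors deposited whole-number read counts per gene symbol, and per the submitters' processing notes STAR, HTSeq, DESeq and build mm9 were used, with versions, strand setting and treatment of reads with several positions not given in the sources used here. Rows that name a gene held 39.3 to 43.9% of the deposited counts, and the rows that name none were left out, and 27 symbols that had been turned into dates were restored by row position. Per the labels the replicates are independent pairs, but the numbers are not said to mark pairs.

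Counts were fitted with edgeR 4.0.16 in R 4.3.3 (quasi-likelihood test, TMM scaling, all 12 libraries in 1 fit of 4 groups), after a filter on low counts (filterByExpr, minimum count 10), with Benjamini-Hochberg adjustment over all genes tested. The fit was tried on simulated data with the same spread for all genes and with planted differences larger than most of those reported here. That trial therefore does not test calls of the size reported. CPM values use TMM-scaled library sizes. DESeq2 1.42.0, other size factors, filters and sample sets were tried as alternatives, 23 in all for a pairwise comparison. A count of 3 was taken as the floor, which is 0.181 to 0.298 CPM by library and covers counting error only. Sums of CPM per complex were compared as means and SDs with no test.

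Members and lists were chosen with earlier results of these data known. Genes were given full values by this rule: up to 5 called members of each complex with the smallest adjusted p in each comparison, the highest member of each complex by CPM, the largest rise and fall of each genotype comparison, the isoform sets and all Sdh subunits (on day 2.5). Names below 1 CPM are given by their means, and some called members by their fold changes alone. The values of 1 member are counted in all totals and are not reported or plotted by name here. Other genes were named where a result turns on them, chosen after their values were seen. Transcript lengths and shared stretches came from GENCODE for build GRCm38 and promoters from RefSeq, matched by symbol, while the counts were made on mm9, so no coordinate was carried between builds. Figures and tables were made with Python 3.11.15.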

Additional observations from a re-analysis of the deposited data

Results flagged for a closer look

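Cox5b was the member whose genotype difference itself differed between the days. The log2 difference between Trim33-deficient and control bodies on day 2.5 minus that on day 2 was 0.45, with Trim33-deficient libraries higher on day 2.5 and lower on day 2, as the values in the report show. The test of this difference passed in the full data and was lost in 11 of 22 settings. Groups of 3 libraries are too small for the check on single outlying libraries.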

How the results depend on the processing

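No called member reversed its direction under any alternative run. Of the members called, 11 of 22 on day 2.5, 0 of 3 on day 2, 1 of 5 over time in Trim33-deficient bodies, 2 of 10 over time in control bodies and 0 of 1 in the interaction passed under every alternative, and the cause of the losses was not tested. On day 2 the number that fell was 9 with upper-quartile scaling (11.7%, against 5.08% of all genes) and 5 with DESeq2 (6.49%, against 4.77%). It was 5 with size factors made without these and the ribosomal protein genes (6.49%, against 4.01%) and 1 without the Rn45s-rich libraries (1.3%, against 1.77%). Without these and the library high in hypoxia genes, 6 fell (7.79%, against 4.73%) and 1 rose (1.3%, against 6.45%). Over time in Trim33-deficient bodies the falls numbered 1 with no filter on low counts (1.3%, against 4.87% of all genes). They numbered 6 with only the groups compared in the fit (7.79%, against 10.9%) and 8 without the Rn45s-rich and hypoxia-high libraries (10.4%, against 12%). Over time in control bodies the rises numbered 0 with only the groups compared and 0 without the Rn45s-rich and hypoxia-high libraries, and the falls numbered 3 with only the groups compared and 5 without the Rn45s-rich libraries. The interaction had 0 calls without the Rn45s-rich libraries.

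Leaving out 1 library at a time gave 0 to 1 rises and 0 to 6 falls on day 2, 3 to 7 rises and 8 to 19 falls on day 2.5, 0 to 3 rises and 1 to 3 falls over time in Trim33-deficient bodies, 0 to 1 rises and 3 to 9 falls over time in control bodies, and 0 to 1 positive calls in the interaction.

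The replicate block changed the falls over time to 17 members in Trim33-deficient bodies (22.1%, against 14.7% of all genes) and 14 in control bodies (18.2%, against 14.6%), where the shares without the block were 2.6% against 6.93% and 11.7% against 7.91%. In Trim33-deficient bodies the members' share thus lay below that of all genes without the block and above it with the block. It gave 0 rises and 2 falls on day 2 and 5 rises and 12 falls on day 2.5. Libraries with the same number did not deviate together throughout. The correlations of their deviations lay between -0.0788 and 0.172 for the genotype pairs of day 2 and between -0.033 and -0.0094 for those of day 2.5. Over time they lay between -0.0181 and 0.182 in Trim33-deficient bodies and between 0.032 and 0.451 in control bodies. Libraries with different numbers gave -0.148 to 0.113, -0.0092 to 0.0246, -0.179 to 0.144 and -0.446 to 0.175, in the same order. Over time in control bodies the highest correlations, 0.365 and 0.451, were thus between equal numbers. The numbers were not taken to pair the samples, but pairing over time stays possible, and the counts over time depend on it.

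For the summed CPM, plain library totals gave log2 ratios on day 2.5 of 0.0041, -0.121, -0.0917, 0.1 and -0.0593 for complexes I to V, and -0.1071 for complex II on day 2, where upper-quartile scaling gave -0.1132. Without the Rn45s-rich and hypoxia-high libraries the day 2 ratios were -0.0404 for complex I and -0.1025 for complex V. Levels of genes with shared stretches, and of members near 1 CPM, are limited by the counting and by depth.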
